A study of Mus musculus with 250 samples.

Results

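The Ifitm genes encode interferon-induced transmembrane proteins. The 5 members described are Ifitm1, Ifitm2, Ifitm3, Ifitm5 and Ifitm6, each read by 1 probe set that carries its symbol alone, out of 18194 genes measured in that way. The family was chosen by the measured rise of Ifitm1 in blood, so its blood values are given as a description and without a test. RNA was profiled on Affymetrix whole-genome mouse arrays from whole breast, liver, spleen, blood cells without plasma and thymus of female FVB mice, with 25 arrays of tumor-bearing mice and 25 of control mice in each tissue, 250 arrays in all. Tumor-bearing mice carried both MMTV-rtTA and TetO-NeuNT, which places an activated Her2/Neu receptor under doxycycline and a promoter active in mammary epithelium, and control mice were littermates that carried TetO-NeuNT only. From 8 weeks of age both groups drank water with 5% sucrose and doxycycline at 2 mg/mL, so the controls received the drug but could not induce the transgene through rtTA. Each tumor-bearing mouse was killed with its age- and cage-matched control when the tumor reached about 1 cm, which gives 25 matched pairs in each tissue.

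Ifitm proteins are small proteins with a CD225 domain that sit in the plasma membrane and in endosomes, where Ifitm3 in particular blocks the fusion of entering viruses. Ifitm1, Ifitm2 and Ifitm3 are induced by type I and type II interferons through STAT and IRF factors and are present in many cells at rest. Ifitm5 is a gene of bone-forming osteoblasts that is not known for induction by interferon, and Ifitm6 is a mouse gene known mainly from hematopoietic cells.

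All values below are log2 array intensities as the authors deposited them, with a floor at the 5th percentile of all values, and a change is the mean of tumor-bearing minus matched control ± its standard error over 25 pairs. Array medians ran from 19.7 in blood to 141 in thymus on the linear scale. Pairs are numbered within a tissue. By its correlation with the other arrays of its tissue and group, 16 of the 250 arrays stood apart: 5 in liver, 4 in spleen, 3 in breast and 2 each in thymus and blood. The liver control of pair 2 was the farthest, with a median correlation of 0.336 and Krt18, an epithelial keratin, at 4.29 against a control median of 11.74, although its albumin gene Alb stood at 14.53. The spleen controls of pairs 13 and 21 lacked the B cell gene Cd79a (6.10 and 6.24 against a tissue median of 12.09), and the spleen array of the tumor-bearing mouse of pair 21 carried Rag1, a gene of thymocytes, at 12.63. The thymus controls of pairs 11 and 20 lacked Rag1 (6.91 and 4.91 against a tissue median of 13.45), and that of pair 20, which the correlation did not set apart, held Cd79a at 12.25 and the red cell gene Alas2 at 13.69. In breast, Krt18 stood at 11.14 in the tumor-bearing mouse of pair 2, the lowest of its group, and at 12.78 in the control of pair 1, the highest of its group. The breast control of pair 4 had the lowest median correlation in breast, 0.894. The probe set of mouse Erbb2, the gene of the receptor family to which NeuNT belongs, had a median of 8.37 in tumor-bearing and 7.12 in control breast, and whether it reads the transgene was not tested. Where the call of a member's change within a tissue turned on these arrays, it is given with and without them. Differences of a change between 2 tissues are given over all pairs only.

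The 5 genes are neighbours on chromosome 7, in the order Ifitm5, Ifitm2, Ifitm1, Ifitm3 and Ifitm6 with no other protein-coding gene between them in the RefSeq annotation of GRCm38.p6. Their promoters, here 250 bases before to 50 bases after the RefSeq start, were searched on both strands for the core of the interferon-stimulated response element (ISRE, letters GAAA, then 2 bases of any kind, then GAAA) and for the gamma-activated STAT site (GAS, TTCNNNGAA). Of 32851 mouse promoters of this length, 3.443% held the ISRE core and 8.298% held the GAS letters. The promoters of the 4 members whose values move most are shown, with matches in capitals. The ISRE core is in Ifitm2 at -46 and in Ifitm3 at 3 and at 20, counted from the start at 1, where a GAS match begins at 14 and shares its last letters with the second ISRE core. Ifitm6 has a GAS match at -10 and no ISRE core. Neither set of letters is in the windows of Ifitm1 and Ifitm5, which says only that these letters are not in these 300 bases.
Ifitm1, GRCm38.p6 chr7:140967826-140968125, plus strand: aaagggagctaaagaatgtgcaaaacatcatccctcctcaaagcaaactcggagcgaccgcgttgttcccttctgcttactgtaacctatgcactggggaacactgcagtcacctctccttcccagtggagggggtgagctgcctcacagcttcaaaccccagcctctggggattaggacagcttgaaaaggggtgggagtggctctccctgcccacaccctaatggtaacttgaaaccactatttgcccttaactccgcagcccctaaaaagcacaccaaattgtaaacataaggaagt
Ifitm2, GRCm38.p6 chr7:140955912-140956211, minus strand: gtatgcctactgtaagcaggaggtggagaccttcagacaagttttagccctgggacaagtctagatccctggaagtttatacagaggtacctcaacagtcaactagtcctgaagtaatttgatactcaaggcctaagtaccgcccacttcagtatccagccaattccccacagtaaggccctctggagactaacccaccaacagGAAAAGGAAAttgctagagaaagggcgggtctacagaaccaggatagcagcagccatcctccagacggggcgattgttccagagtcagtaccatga
Ifitm3, GRCm38.p6 chr7:141010695-141010994, minus strand: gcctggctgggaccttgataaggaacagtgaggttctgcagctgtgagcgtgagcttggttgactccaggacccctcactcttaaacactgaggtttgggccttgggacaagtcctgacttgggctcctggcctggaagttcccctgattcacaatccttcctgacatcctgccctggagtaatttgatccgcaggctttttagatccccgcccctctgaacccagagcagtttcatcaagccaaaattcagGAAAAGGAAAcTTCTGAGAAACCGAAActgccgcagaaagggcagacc
Ifitm6, GRCm38.p6 chr7:141016843-141017142, minus strand: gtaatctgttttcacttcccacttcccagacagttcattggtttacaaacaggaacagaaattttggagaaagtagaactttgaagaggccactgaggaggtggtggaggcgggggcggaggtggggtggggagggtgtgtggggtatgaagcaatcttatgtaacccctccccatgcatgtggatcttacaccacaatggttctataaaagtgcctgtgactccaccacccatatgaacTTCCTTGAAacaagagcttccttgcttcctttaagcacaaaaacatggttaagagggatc

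Ifitm1 was far higher in blood of tumor-bearing mice, rose in liver and spleen, and fell in breast. In blood, its log2 intensity in tumor-bearing mice had a lowest value of 11.10, a median of 12.45 and a highest of 14.03, and in controls these were 7.43, 8.40 and 10.08. Every tumor-bearing array was above every control array, and the mean difference was 4.18 ± 0.20, which is 18.1-fold and was seen in 25 of 25 pairs. These values chose the gene and carry no test; 67 of all genes, 0.368%, had such a separation in blood and 8.66% of genes were called higher there. Within pairs the blood difference ran from 1.86 in pair 19 to 5.81 in pair 9, it was 4.09 ± 0.21 over the 23 pairs without an array that stood apart, and it was 3.87 in the 10 pairs with the earlier sample-ID prefixes and 4.38 in the 15 pairs with the later ones.

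Outside blood, Ifitm1 rose in liver and in spleen. In liver its lowest, median and highest values were 9.47, 10.09 and 10.76 in tumor-bearing mice and 6.07, 8.84 and 9.26 in controls, so the groups did not overlap. The liver change was 1.33 ± 0.13, 2.51-fold, higher in 25 of 25 pairs (limma, Benjamini-Hochberg adjusted p = 1.94e-08), where 7.89% of genes were called higher and 0.203% had groups that did not overlap. In the earlier prefixes alone it was 1.42 ± 0.28, higher in 10 of 10 pairs, and did not pass (limma adjusted p = 0.0584), where 0.467% of genes were called higher. Without the 5 liver pairs that hold an array that stood apart it was 1.17 ± 0.085, with 18.6% of genes called higher and 18.9% lower. In spleen the values were 11.49, 12.31 and 13.11 in tumor-bearing mice and 9.68, 10.89 and 11.19 in controls, again without overlap. The spleen change was 1.45 ± 0.090, 2.73-fold, higher in 25 of 25 pairs (limma adjusted p = 7.46e-12), against 22.4% of genes called higher and 0.143% with groups that did not overlap. It was 1.39 ± 0.079 over the 23 pairs whose arrays held Cd79a, with 29.5% of genes called higher.

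In thymus Ifitm1 did not pass the test. Its lowest, median and highest values were 9.64, 10.26 and 11.97 in tumor-bearing mice and 8.48, 9.84 and 12.52 in controls, and the groups overlapped. The 2 highest controls, at 12.52 and 12.02, were the arrays of pairs 20 and 11 that lacked Rag1. The change was 0.41 ± 0.18, with 18 of 25 pairs higher and a limma adjusted p of 0.995, and 0.60 ± 0.14 without those pairs (limma adjusted p = 0.126). In thymus 2 of 18194 genes, 0.011%, were called higher and none lower. The unadjusted limma p there was 0.0333 for Ifitm1 and 0.00296 for Ifitm6. The adjusted p was 0.995 and 0.844, so over all pairs neither passed.

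In breast Ifitm1 fell. Tumor-bearing breast had a lowest value of 6.46, a median of 8.41 and a highest of 9.72, and control breast had 8.65, 9.29 and 9.91, so the groups overlapped while the spread of the tumor-bearing group reached lower. The change was -0.90 ± 0.20, lower in 19 of 25 pairs (limma adjusted p = 0.000331), where 32.3% of genes were called lower and 30% higher. Over the 22 pairs without an array that stood apart it was -1.09 ± 0.20 (limma adjusted p = 3.69e-05), with 35.8% of genes called lower. By set of sample-ID prefixes, the change was -0.41 ± 0.26 in the earlier set, where it did not pass (limma adjusted p = 0.241), and -1.23 ± 0.25 in the later set (adjusted p = 0.000413). Of all genes, 18.2% were called higher and 20.5% lower in the earlier set, and 28% and 28.2% in the later. Whether the sets differ from each other was not tested.

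**Figure D1:**
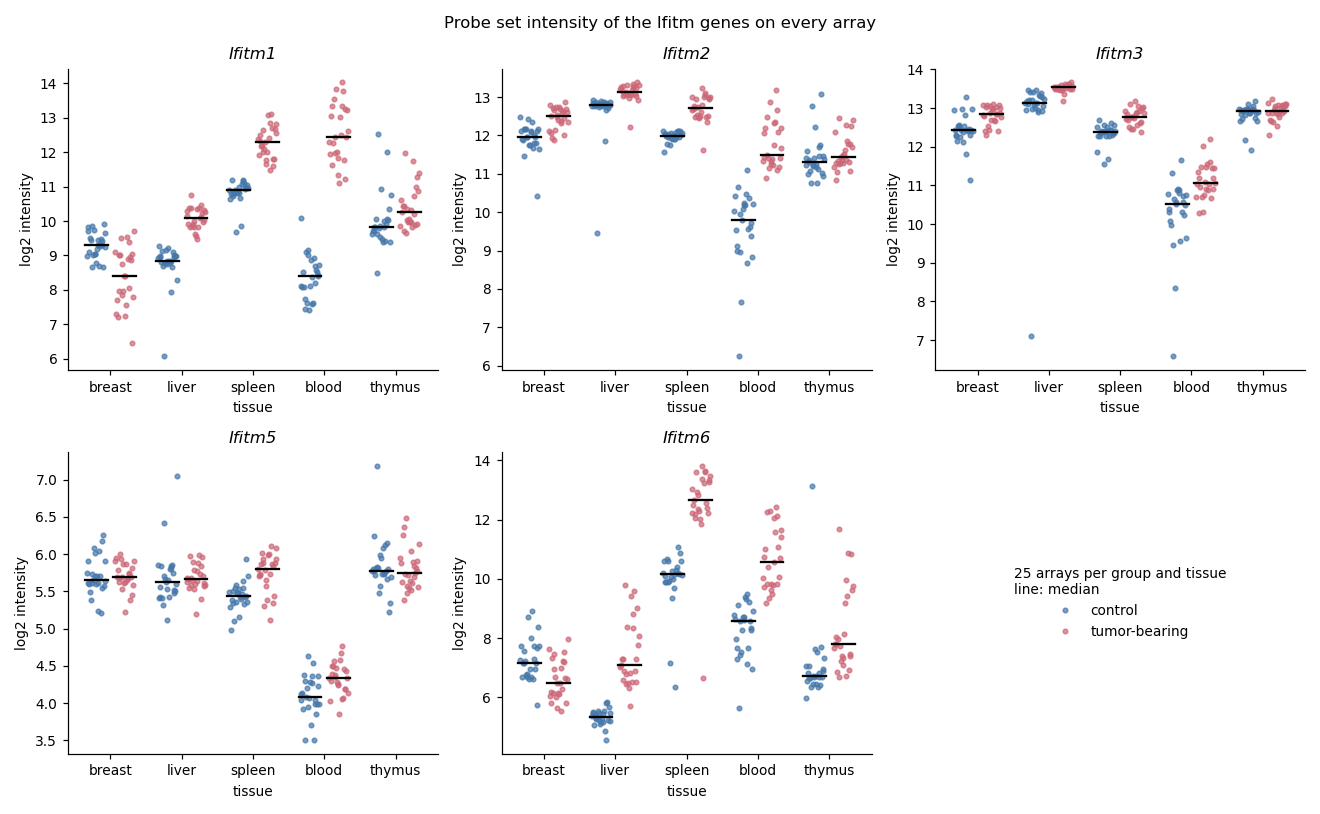
Each point is 1 array, with the log2 intensity of a gene's probe set on the vertical axis and the tissue on the horizontal axis, control in blue and tumor-bearing in red, and a line at the median of the 25 arrays. Ifitm1 separates the groups without overlap in liver, spleen and blood, with blood medians of 8.40 and 12.45, and the vertical scale differs between panels.

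Ifitm6 rose in liver and spleen, was higher in blood and fell in breast, as Ifitm1 did. In spleen its lowest, median and highest values were 6.67, 12.68 and 13.81 in tumor-bearing mice and 6.37, 10.16 and 11.09 in controls. The tumor-bearing array at 6.67 is the one of pair 21 that carried Rag1, and the other 24 were above every control. The spleen change was 2.62 ± 0.20, 6.16-fold, higher in 25 of 25 pairs (limma adjusted p = 1.77e-10), and 2.59 ± 0.14 over the 23 pairs whose arrays held Cd79a.

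In liver Ifitm6 stood at 5.70, 7.09 and 9.81 (lowest, median, highest) in tumor-bearing mice and at 4.56, 5.35 and 5.84 in controls. The controls lay close together while the tumor-bearing mice spread widely, and 24 of the 25 were above every control. The liver change was 2.15 ± 0.21, 4.43-fold, higher in 25 of 25 pairs (limma adjusted p = 1.26e-08). Blood, as a description, held Ifitm6 at 9.19, 10.57 and 12.44 in tumor-bearing mice and at 5.66, 8.57 and 9.48 in controls, a difference of 2.43 ± 0.31 with 25 of 25 pairs higher.

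The thymus was where the Ifitm6 call turned on 1 array. Its lowest, median and highest values were 6.68, 7.80 and 11.70 in tumor-bearing mice and 5.99, 6.73 and 13.12 in controls, and the next highest control was at 7.71. The control at 13.12 is the array of pair 20 that lacked Rag1 and held Cd79a, and its pair had a difference of -5.37. Over all 25 pairs the change was 1.25 ± 0.38, with 21 pairs higher and an adjusted p of 0.844 (limma). Without the pairs that hold an array that stood apart, which keeps pair 20, it did not pass either. The highest pair difference was 5.03, in pair 9, and the change without that pair was 1.09. Without pair 20 alone it was 1.53 (adjusted p = 0.0276), with 0.115% of genes called, and without pairs 11 and 20 it was 1.60 ± 0.30 (limma adjusted p = 0.0239), where Ifitm6 was 1 of 18 genes called, 0.0989%. In the later set of sample-ID prefixes the thymus change was 1.90 ± 0.37 (adjusted p = 0.0775) and in the earlier set, which holds both of those pairs, it was 0.275 ± 0.64 (adjusted p = 0.9999), beside 0.066% and 0% of genes called higher.

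In breast Ifitm6, like Ifitm1, fell. The lowest, median and highest values were 5.55, 6.49 and 7.99 in tumor-bearing and 5.76, 7.18 and 8.91 in control breast, with the groups overlapping over most of their range. The change was -0.69 ± 0.19, lower in 18 of 25 pairs (limma adjusted p = 0.00227). Over the 22 pairs without an array that stood apart it was -0.88 ± 0.18 (limma adjusted p = 0.00016). It was -0.49 ± 0.33 in the earlier set of prefixes (adjusted p = 0.266) and -0.82 ± 0.21 in the later set (adjusted p = 0.00293).

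Ifitm2 rose in breast, liver and spleen by less than 1 log2 unit. In spleen its lowest, median and highest values were 11.62, 12.72 and 13.24 in tumor-bearing mice and 11.57, 11.99 and 12.13 in controls, and 24 of 25 tumor-bearing arrays were above every control. The spleen change was 0.73 ± 0.065 (24 of 25 pairs higher, limma adjusted p = 1.73e-09). In breast the values were 11.87, 12.51 and 12.86 against 10.43, 11.96 and 12.49, and the change was 0.52 ± 0.099 with 22 of 25 pairs higher (limma adjusted p = 5.82e-05). The largest breast difference, 2.43, was that of pair 4, whose control stood apart. Over the 22 pairs without such an array the change was 0.51 ± 0.050 (limma adjusted p = 3.11e-09). Breast Ifitm2 therefore moved opposite to Ifitm1 in the same samples, although it too did not pass in the earlier prefixes alone (0.25 ± 0.12, adjusted p = 0.111).

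In liver Ifitm2 had lowest, median and highest values of 12.21, 13.13 and 13.39 in tumor-bearing mice and 9.45, 12.80 and 12.93 in controls. The 2 lowest controls, 9.45 and 11.87, were the arrays of pairs 2 and 7 that stood apart. The change was 0.48 ± 0.14 with 24 of 25 pairs higher (limma adjusted p = 0.0234), and 0.36 ± 0.028 without the pairs that hold such an array (adjusted p = 2.82e-09). In blood Ifitm2 lay at 10.88, 11.48 and 13.19 in tumor-bearing mice and at 6.25, 9.79 and 11.10 in controls, a difference of 2.17 ± 0.26 in 25 of 25 pairs. The blood controls at 6.25 and 7.67 were those of pairs 9 and 13, which stood apart, and the difference was 1.87 ± 0.18 without them. Thymus did not pass (0.14 ± 0.14, 16 of 25 pairs higher, limma adjusted p = 0.995).

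Ifitm3, the best known of the antiviral members, rose by small amounts in breast and spleen. In spleen its lowest, median and highest values were 12.38, 12.78 and 13.19 in tumor-bearing mice and 11.54, 12.38 and 12.69 in controls, and the change was 0.45 ± 0.058 (24 of 25 pairs higher, limma adjusted p = 4.42e-07). In breast they were 12.31, 12.85 and 13.12 against 11.15, 12.43 and 13.29, and the change was 0.37 ± 0.087 (22 of 25 pairs higher, limma adjusted p = 0.000514). Pair 4 again had the largest breast difference, 1.92. Over the 22 pairs without an array that stood apart the change was 0.34 ± 0.063 (limma adjusted p = 3.68e-05). The groups overlapped in breast and spleen, and the breast change did not pass in the earlier prefixes alone (0.23 ± 0.091, adjusted p = 0.0697).

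The liver shows how 1 array decides the Ifitm3 call. All 25 pairs were higher, with tumor-bearing values of 13.19, 13.54 and 13.67 (lowest, median, highest) and control values of 7.10, 13.13 and 13.47. The control at 7.10 is the array of pair 2 that stood apart, and the next lowest control was at 12.91. With it the change was 0.59 ± 0.23 (limma adjusted p = 0.12). Without pair 2 it was 0.35 (adjusted p = 1.01e-06), with 18.6% of genes called in either direction, and without all 5 pairs that hold an array that stood apart it was 0.34 ± 0.039 (adjusted p = 4.21e-07). In blood Ifitm3 stood at 10.29, 11.07 and 12.20 against 6.59, 10.51 and 11.65, with a difference of 0.87 ± 0.23 in 21 of 25 pairs and of 0.58 ± 0.12 without pairs 9 and 13. Thymus levels lay together, with medians of 12.92 and 12.93 and a change of 0.066 ± 0.066.

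Ifitm5, the osteoblast member, was dim in all 5 tissues. Its highest value on any array was 7.18, in the thymus control of pair 2 that stood apart, and 0.8% of the 250 arrays were at the floor. It rose in spleen, from 4.99, 5.44 and 5.93 (lowest, median, highest) in controls to 5.12, 5.80 and 6.11, a change of 0.31 ± 0.065 in 19 of 25 pairs (limma adjusted p = 0.000274). The spleen change in the earlier prefixes alone was 0.18 ± 0.084, with 6 of 10 pairs higher, and did not pass (limma adjusted p = 0.0996, where 22% of genes were called higher). Breast (-0.0032 ± 0.060), liver (-0.0016 ± 0.081) and thymus (-0.031 ± 0.079) did not pass. Without the pairs that hold an array that stood apart, the liver change was 0.11 ± 0.041 and passed (limma adjusted p = 0.0342). Blood had a difference of 0.23 ± 0.067, which was 0.017 ± 0.014 with the floor at the 25th percentile. Of 5 measured osteoblast genes none rose in spleen and 1 fell, beside 22.4% of all genes called higher and 18.3% lower.

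**Figure D2:**
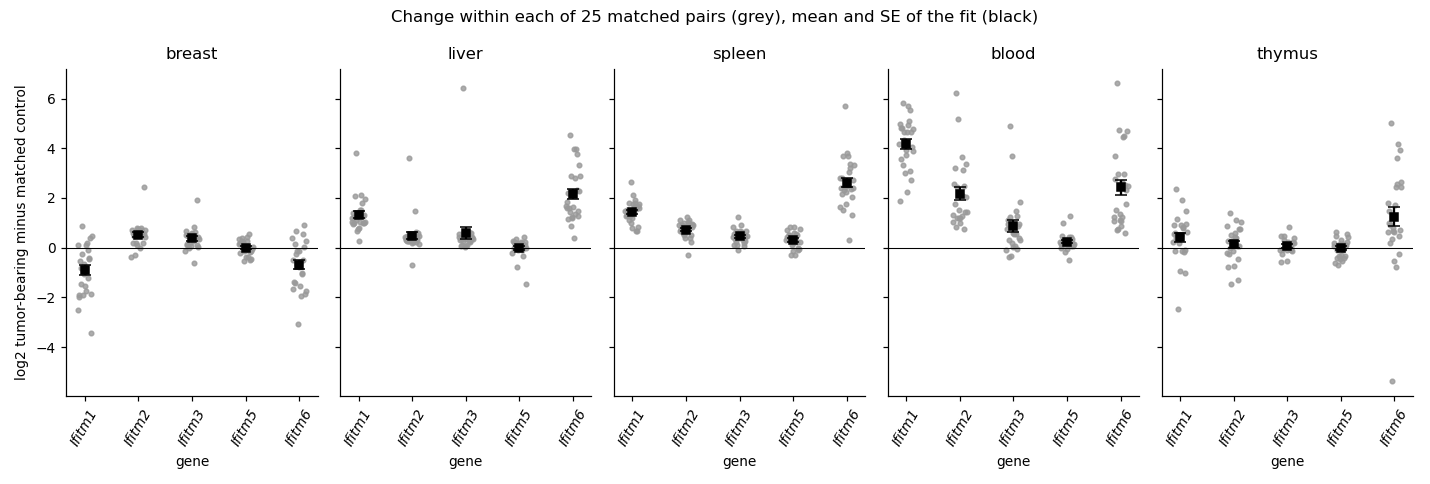
Each grey point is 1 matched pair, with the log2 difference of tumor-bearing minus control on the vertical axis and the gene on the horizontal axis, and black squares and bars are the mean and standard error of 25 pairs. Ifitm1 and Ifitm6 lie below 0 in breast (-0.90 and -0.69) and above 0 in liver, spleen and blood, and the lowest thymus point of Ifitm6 is pair 20 at -5.37.

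Whether a member's change differed between breast, liver, spleen and thymus was tested with an F test over the within-pair differences, with the mouse pair as a block; blood was left out because it chose the family. The change differed for Ifitm1 (limma adjusted p = 2.4e-17), Ifitm6 (adjusted p = 2.12e-14), Ifitm2 (adjusted p = 0.00756) and Ifitm5 (adjusted p = 0.00745), 4 of 5 members beside 56.8% of all genes. Ifitm3 did not pass (limma adjusted p = 0.0817), and it passed without the pairs that hold an array that stood apart (adjusted p = 0.000171). For Ifitm1 the breast change minus the liver change was -2.23 ± 0.21 and minus the spleen change -2.35 ± 0.21, and for Ifitm6 these were -2.84 ± 0.33 and -3.31 ± 0.33. All 4 passed, beside 41.8% of genes for breast against liver and 46.5% for breast against spleen. Liver and spleen were closer: the liver change minus the spleen change was -0.12 ± 0.21 for Ifitm1 and -0.47 ± 0.33 for Ifitm6, neither past the threshold (20.1% of genes passed). The spleen change of Ifitm1 exceeded that of thymus by 1.03 ± 0.21 (limma adjusted p = 9.22e-05), where 16.5% of genes passed.

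The order of tissues by level could be read for some members only, because the arrays of the tissues have different medians. Among controls, Ifitm3 was highest in liver (12.93 ± 1.23, SD, n = 25) and lowest in blood (10.26 ± 1.01), with thymus (12.84 ± 0.27), breast (12.44 ± 0.41) and spleen (12.33 ± 0.27) between. This order was the same when all 250 arrays were quantile normalized together, and neighbours in it differed by less than the larger of their SDs, except spleen and blood on the deposited scale. Ifitm6 was lowest in control liver on both scales, at 5.34 ± 0.28 as deposited. For Ifitm1 the order did not hold: control blood was the lowest tissue as deposited (8.37 ± 0.63) and the highest after joint normalization (10.51 ± 0.63).

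Genes of neutrophils, the granulocytes that carry the calprotectin subunit gene S100a9, were also higher in tumor-bearing mice in the tissues where Ifitm1 and Ifitm6 were. Of 15 measured neutrophil genes, 15 rose in spleen, 14 in liver, 11 in blood and 2 in thymus, with none lower there, and 9 rose and 1 fell in breast. Of all genes, 22.4% were called higher in spleen, 7.89% in liver, 8.66% in blood, 0.011% in thymus and 30% in breast. In the earlier prefixes alone 8 rose in liver, beside 0.467% of all genes, and without pairs that hold an array that stood apart none passed in thymus. Their median change was highest in blood at 2.99, followed by liver at 2.77, spleen at 2.59, thymus at 0.94 and breast at 0.78, beside medians over all genes between -0.033 and 0.0067. The summed level of the list, in log2, ran from 14.25 to 16.49 in tumor-bearing and from 10.21 to 13.65 in control blood, from 12.64 to 15.63 and from 9.78 to 10.96 in liver, and from 13.21 to 17.64 and from 11.35 to 16.14 in spleen. In blood the granule genes Elane, Mpo and Prtn3, of immature cells, did not pass, with changes of -0.056, 0.063 and 0.12. Padi4, the other gene of the list that did not pass in blood, changed by 0.15. The part of neutrophils in the changes of the Ifitm genes was not tested, and in whole tissue a change in the number of cells of a type and a change of RNA per cell cannot be told apart. The 2 genes called in thymus over all 25 pairs were S100a8 and S100a9, both of this list, and 7 of the 15 passed there without pairs 11 and 20.

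Breast had the widest changes in other cell types beside the fall of Ifitm1 and Ifitm6. All 8 measured T cell genes, 7 of 7 B cell genes, 6 of 7 NK cell genes, 6 of 6 endothelial genes and 6 of 6 adipocyte genes fell in tumor-bearing breast, and 6 of 8 luminal epithelial genes rose, where 32.3% of all genes were called lower and 30% higher. In the earlier prefixes alone none of the T cell genes, 1 B cell gene and 3 NK cell genes passed, and in the later ones 8, 7 and 6, beside 20.5% and 28.2% of all genes called lower. The summed log2 level of the T cell list ran from 8.70 to 12.30 in tumor-bearing and from 9.10 to 12.79 in control breast, and that of the luminal list from 14.29 to 15.65 and from 12.06 to 15.33. The 3' to 5' ratio of the Gapdh control probe sets, a measure of RNA quality and labelling, differed in breast by -0.76 ± 0.17 (log2, permutation test, adjusted p = 0.00075) and by 0.12 ± 0.047 in spleen (adjusted p = 0.0448), and did not pass in liver, blood or thymus. The ratio of the actin probe sets differed in breast by -0.39 ± 0.079 (permutation test, adjusted p = 0.00075). In spleen the actin ratio did not pass (0.046 ± 0.039, adjusted p = 0.386), nor did it in liver, blood or thymus. Their part in the breast changes was not tested.

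Across the mice of 1 group, Ifitm1 followed S100a9 closely in blood of tumor-bearing mice. Correlations in blood are given as a description, with no test, since blood values of Ifitm1 chose the family. Pearson's r was 0.98 and Spearman's rho was 0.97 over 25 mice, and r was 0.97 without the 2 mice farthest from the median, and 1.00 and 0.97 in the 2 sets of prefixes. In control blood r was 0.75 and rho 0.89, and r was 0.73 without the 2 farthest mice. The points share a library, so anything that scales a whole array enters both axes.

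In control blood Ifitm1 had r = 0.089 with Ifitm2 and 0.082 with Ifitm6, and rho of 0.029 and -0.0077. In tumor-bearing blood r was 0.94 with Ifitm2 and 0.89 with Ifitm6, and 0.93 and 0.86 without the 2 farthest mice. With S100a9 in control blood, r was 0.54 for Ifitm2, 0.54 for Ifitm3 and 0.49 for Ifitm6, and rho was 0.18, 0.054 and 0.13. These values of r rested on the farthest mice, without which they were 0.22, 0.12 and 0.10. By set of prefixes they were -0.17, -0.19 and -0.19 over the 10 control mice of the earlier set and 0.76, 0.75 and 0.66 over the 15 of the later set. In tumor-bearing blood r with S100a9 was 0.91, 0.62 and 0.89, and rho was 0.95, 0.62 and 0.89. A difference between the 2 groups in these correlations was not tested.

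In spleen, Ifitm6 was the member that followed S100a9 in both groups. In control spleen r was 0.99 and rho 0.94, and r was 0.93 without the 2 farthest mice or without the arrays that stood apart. In tumor-bearing spleen r was 0.95, rho 0.97, and r was 0.98 without the 2 farthest mice (each permutation, adjusted p = 5.71e-05 for r). Other members followed S100a9 in that group too. Without the 2 farthest mice r was 0.82 for Ifitm1, 0.83 for Ifitm2 and 0.70 for Ifitm5, but 0.35 for Ifitm3, which did not pass. Ifitm1 with S100a9 in control spleen had r = 0.81, but rho was 0.25 and r was 0.024 without the 2 farthest mice, so that relation rested on them. In liver of tumor-bearing mice r with S100a9 was 0.94 for Ifitm6 and 0.81 for Ifitm1, with rho of 0.96 and 0.79 and r of 0.94 and 0.72 without the 2 farthest mice. In control liver neither passed, with r of 0.12 and 0.31 (permutation, adjusted p = 0.687 and 0.226).

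**Figure D3:**
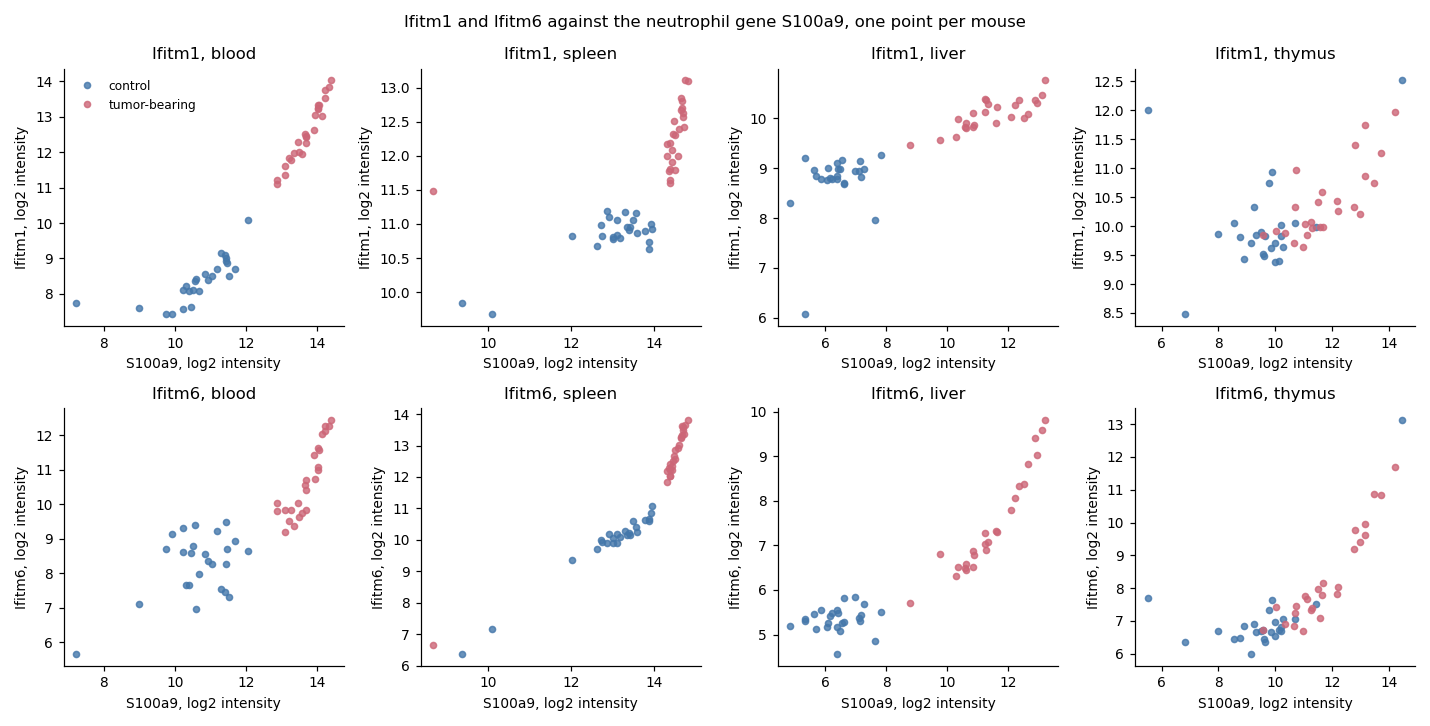
Each point is 1 mouse, with the log2 intensity of S100a9 on the horizontal axis and that of Ifitm1 (upper row) or Ifitm6 (lower row) on the vertical axis, in blood, spleen, liver and thymus, control in blue and tumor-bearing in red. In blood the tumor-bearing points of Ifitm1 lie along a line (r = 0.98, and 0.97 without the 2 farthest mice). For the control points of Ifitm6 in blood r was 0.10 without the 2 farthest mice. It was -0.19 in the earlier and 0.66 in the later prefixes. The blue thymus points at the top right of both panels are the control of pair 20.

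Ifitm2 and Ifitm3 were correlated with each other in breast and, in tumor-bearing mice, in spleen, thymus and liver. Without the 2 farthest mice their r in tumor-bearing mice was 0.88 in spleen, 0.63 in thymus and 0.55 in liver. The permutation adjusted p was 0.00045, 0.0049 and 0.020. In control thymus their r was 0.65 without the 2 farthest mice (permutation adjusted p = 0.0071) and 0.40 without arrays that stood apart (adjusted p = 0.15). In control spleen it was 0.41 without the 2 farthest mice (permutation adjusted p = 0.13) and 0.73 without arrays that stood apart (adjusted p = 0.0059). Their r was 0.89 in control and 0.87 in tumor-bearing breast, with 0.79 and 0.84 without the 2 farthest mice, and rho was 0.89 and 0.85 (permutation, adjusted p = 5.71e-05 for each r). In control blood, as a description, it was 0.97, and 0.91 without the 2 farthest mice, and in tumor-bearing blood 0.84 and 0.74. Ifitm6 had values of the same size there, with r of 0.93 with Ifitm2 and 0.89 with Ifitm3 in control blood without the 2 farthest mice. In control liver r was 0.96 but rho was 0.065, and r was -0.22 without the 2 farthest mice, so the relation there rested on them. Irf7, the interferon regulatory factor that amplifies the interferon response, followed Ifitm3 in control breast (r = 0.81, rho = 0.75), control liver (r = 0.76, rho = 0.78) and control spleen (r = 0.89, rho = 0.65), with r of 0.75, 0.75 and 0.63 without the 2 farthest mice. In tumor-bearing mice it did so in breast (r = 0.64, rho = 0.67, permutation adjusted p = 0.00208), and in spleen r was 0.25 and rho 0.27 (adjusted p = 0.326). In tumor-bearing liver r was 0.11 without the 2 farthest mice (permutation adjusted p = 0.77). For Ifitm2 with Irf7, r without the 2 farthest mice was 0.68 in control breast (permutation adjusted p = 0.00071) and 0.33 in tumor-bearing breast (adjusted p = 0.29). Of the 160 relations outside blood between members, or of a member with S100a9 or Irf7, 71 passed by Pearson's r, with p adjusted over 200 relations that count those of blood.

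The other genes that interferons induce held risers and fallers in breast and spleen. Of 41 measured interferon response genes, 11 rose and 12 fell in breast, 11 rose and 0 fell in liver, 19 rose and 11 fell in spleen, 16 rose and 1 fell in blood, and none passed in thymus. Median changes were -0.069, 0.22, 0.045, 0.16 and 0.029 in that order, beside medians over all genes between -0.033 and 0.0067. Without the pairs that hold an array that stood apart the counts were 11 and 15 in breast, 17 and 4 in liver, 19 and 17 in spleen, and 16 and 5 in blood. Over all pairs, the shares of all genes called higher and lower were 30% and 32.3% in breast, 7.89% and 2.28% in liver, 22.4% and 18.3% in spleen, and 8.66% and 4.27% in blood. Without those pairs the shares higher and lower were 31.8% and 35.8% in breast, 18.6% and 18.9% in liver, 28.9% and 26.4% in spleen, and 10.3% and 11.5% in blood. In liver 1 rose in the earlier prefixes alone, beside 0.467% of all genes. The 2 sets of prefixes gave different counts in breast, with 12 higher and 4 lower in the earlier set and 5 and 15 in the later, beside 18.2% and 20.5% of all genes in the earlier and 28% and 28.2% in the later.

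The oligoadenylate synthetase genes, which make the activator of RNase L, were among the called genes with the smallest p outside breast. In spleen Oas3 rose by 1.61 ± 0.12, Oasl2 by 1.45 ± 0.11 and Oas2 by 1.12 ± 0.10, each in 25 of 25 pairs. In liver Oas1a rose by 0.80 ± 0.11 and Oas2 by 0.39 ± 0.066, beside Ifi27l2a, a mitochondrial interferon-induced gene, by 1.79 ± 0.12. In breast Ifi27l2a fell by 2.28 on the log2 scale (standard error 0.24) and Psmb9, a subunit of the immunoproteasome, by 1.16, while Eif2ak2, the RNA-sensing kinase PKR, rose by 1.40 ± 0.14. In blood Oasl2 rose by 3.39 ± 0.20, the largest of the 3 blood genes named by p, beside Oas3 at 1.22 ± 0.15 and Rtp4 at 1.55 ± 0.20.

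Interferon ligand genes were low. Of 6 measured, 3 fell in breast, 2 rose and 1 fell in spleen, 1 fell in blood and none passed in liver or thymus. Ifng, the type II ligand, fell by 0.35 in breast, by 0.25 in spleen and by 0.46 in blood on the log2 scale, from control means of 3.92, 5.01 and 4.44, beside a floor of 3.504. Of 16 measured genes of interferon receptors and JAK-STAT signaling, 9 rose and 4 fell in breast, 6 and 0 in liver, 4 and 5 in spleen, 9 and 0 in blood, and none passed in thymus. Socs3, a STAT-induced inhibitor of cytokine receptors, rose by 3.02 ± 0.18 in liver, 2.70 ± 0.22 in blood, 1.45 ± 0.12 in spleen and 1.07 ± 0.14 in breast. Stat3 rose by 1.23 ± 0.20 in liver, 1.10 ± 0.19 in blood and 1.09 ± 0.13 in breast. Of 10 genes of the gp130 cytokine axis, which signals through Stat3, 5 rose and 4 fell in breast, 5 rose in liver, 4 rose and 1 fell in spleen and 4 rose in blood. These 3 lists stand beside 30% of all genes called higher and 32.3% lower in breast, 22.4% and 18.3% in spleen, 8.66% and 4.27% in blood, and 7.89% and 2.28% in liver. In the earlier prefixes alone 1 JAK-STAT gene rose in liver and 2 in blood, where 0.467% and 1.67% of genes were called higher. The oncostatin receptor gene Osmr rose by 1.96 ± 0.13 in liver and by 1.28 ± 0.14 in breast.

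**Figure D4:**
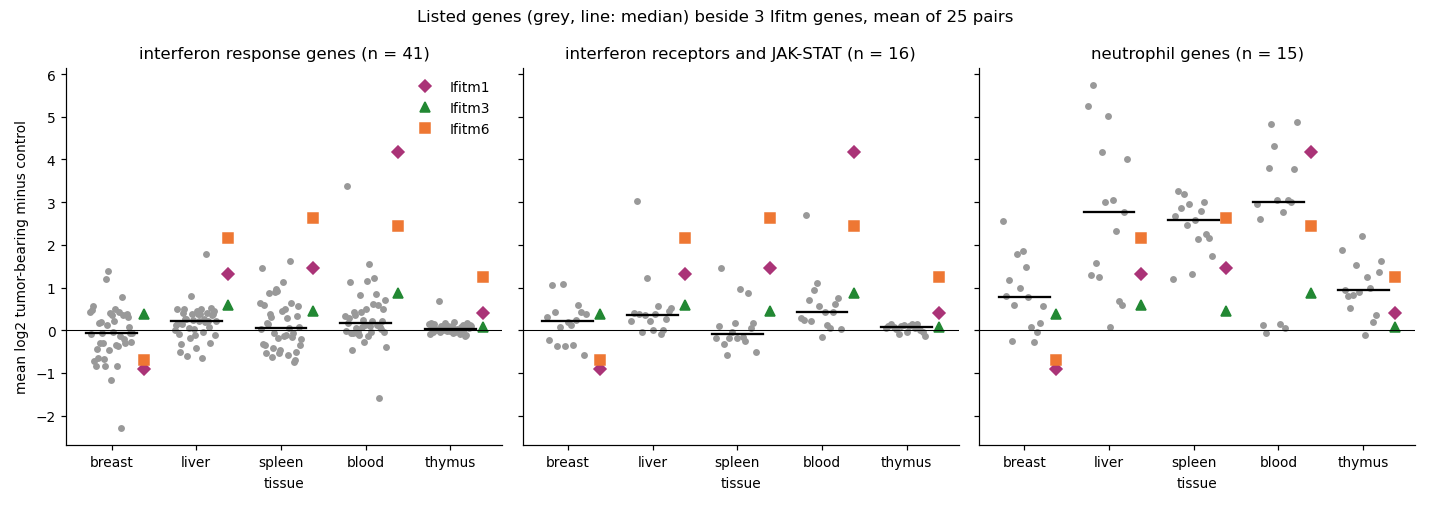
Each grey point is 1 listed gene, with its mean log2 change over 25 pairs on the vertical axis and the tissue on the horizontal axis, for 41 interferon response genes, 16 genes of interferon receptors and JAK-STAT and 15 neutrophil genes, with a line at the median. The coloured marks give Ifitm1, Ifitm3 and Ifitm6: in liver and spleen Ifitm1 and Ifitm6 lie above the interferon response medians of 0.22 and 0.045, and the neutrophil medians there are 2.77 and 2.59.

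Genes outside the cluster that share the CD225 domain were called in breast and spleen. Of 7 measured, none rose and 5 fell in breast, 1 rose and 1 fell in spleen, and none passed in liver, blood or thymus. Trarg1, a regulator of glucose transporter traffic in fat, fell by 3.96 in breast on the log2 scale, and Ifitm10 and Ifitm7 fell there by 0.19 and 0.22. Of 8 measured genes for reported partners of Ifitm proteins, 6 rose and 1 fell in breast, 2 rose in liver, 2 rose and 2 fell in spleen and 2 fell in blood. Of all genes, 30% were called higher and 32.3% lower in breast, 22.4% and 18.3% in spleen, 7.89% higher in liver and 4.27% lower in blood. Zdhhc20, a palmitoyltransferase that modifies Ifitm3, rose by 1.01 ± 0.090 in breast, and the tetraspanin gene Cd9 rose by 1.43 ± 0.15 in breast and 1.08 ± 0.17 in liver.

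Over the 125 within-pair differences of all tissues, each member had its own nearest genes, given as a description since the rule that chose the family used part of these values. The gene most like Ifitm1 was Steap4, a metalloreductase (r = 0.92, median of the 5 within-tissue values 0.79), whose change was 4.77 in blood, 2.49 in spleen, 1.52 in liver, 0.30 in thymus and -1.80 in breast. Next came Prr5l, Pgd, Ppp1r3d and Rnf144a, with r from 0.85 to 0.88, all lower in breast and higher in blood on average. For Ifitm2 it was Myd88, the adaptor of Toll-like receptors (r = 0.90), followed by Msrb1, Mettl9, Pxn and Mrpl33. For Ifitm3 it was Sem1, a proteasome subunit gene (r = 0.91), followed by Arf1, Rnf130, Pomp and Pcbp1. For Ifitm6 they were Emilin2 (r = 0.88), Slfn4 (r = 0.86), Lrg1, Cd300lb and Pfkfb4. Ifitm5 had no gene above r = 0.59, that of Dscaml1, with Mapk8ip2, Astl, Gpr84 and Jph4 after it. Arrays that stood apart were kept in all these r. For Ifitm3 the liver difference of pair 2 was 6.45, with the next highest at 0.63. Mean changes of its nearest genes could be small, as for Arf1 in spleen (0.0079, beside 0.31 for Sem1 and 0.45 for Ifitm3). How far these r rested on the arrays that stood apart was not tested.

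Genes beside the cluster were called in breast and spleen. Of the 5 measured genes on either side, 10 in all, none passed in liver, blood or thymus, where their changes lay between -0.28 and 0.39. In spleen 3 rose, Ptdss2 by 0.79 ± 0.12, Psmd13 by 0.44 and B4galnt4 by 0.13, and 2 fell, Sigirr and Pkp3, where 22.4% of all genes were called higher and 18.3% lower. In breast 5 rose and 3 fell, where these shares were 30% and 32.3%, from Cox8b, a respiratory chain subunit gene of brown fat and muscle, at -4.27 to Pkp3, a plakophilin of epithelial junctions, at 1.76. The nearest measured genes were Pgghg before Ifitm5, with a spleen change of -0.052, and B4galnt4 after Ifitm6.

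**Figure D5:**
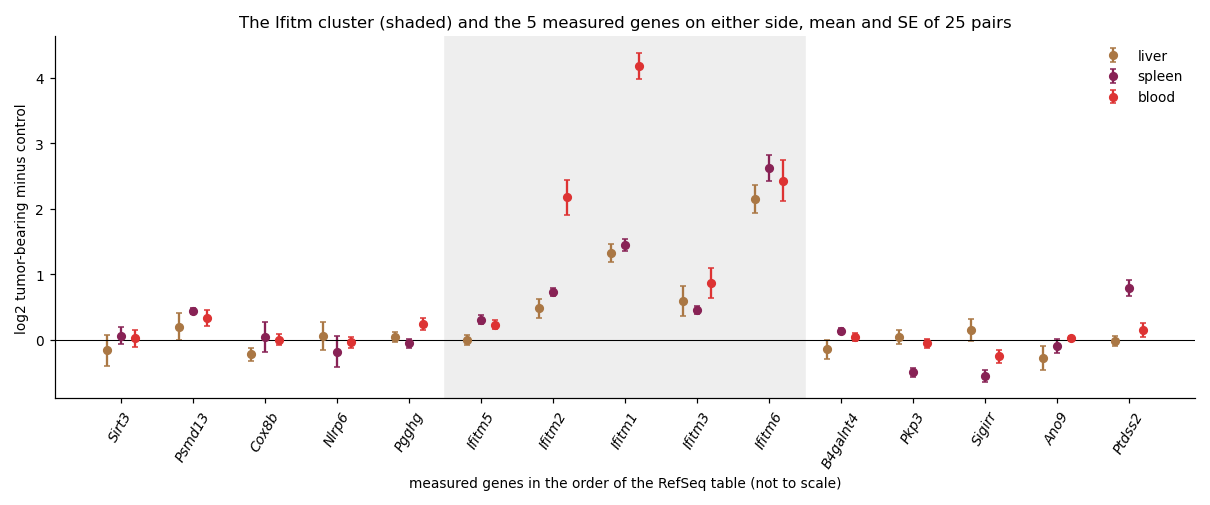
Points give the mean log2 change of tumor-bearing minus control with its standard error over 25 pairs on the vertical axis, in liver, spleen and blood, for the 5 Ifitm genes (shaded) and the 5 measured genes on either side in their order on the chromosome. Ifitm1 in blood stands at 4.18, and the 10 genes outside the shading lie between -0.55 and 0.79.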

How the data were processed

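RNA of 250 samples was hybridized to 1-color arrays, 25 per group and tissue. The deposited values are linear intensities, between 5.17 and 47198; the normalization software is not given in the sources used here, and the number of arrays limits the precision. Lower values were raised to the 5th percentile (11.35) before log2 was taken. Of 45101 probe sets, 34958 had 1 gene symbol, 932 several and 9211 none; the probe set with the highest mean stood for each of 18194 genes. Each tissue was fitted alone with limma 3.58.1 (R 4.3.3), the matched pair named in the labels as a block, and Benjamini-Hochberg adjustment over all genes (threshold 0.05). Changes were compared between tissues by a limma F test on within-pair differences, with pairs linked across tissues by sample name. Correlations over all mice used 100000 two-sided permutations, and those with mice left out used fewer (Python 3.11.15, numpy 2.4.6, pandas 2.3.3, scipy 1.17.1). The permutation test of RNA quality used 100000 random sign flips of the within-pair differences. The fit was tested on simulated data. An array stood apart if its median correlation with its group lay over 3 interquartile ranges under the first quartile of its tissue; an array lacked its marker if Krt18 (breast), Alb (liver), Cd79a (spleen), Alas2 (blood) or Rag1 (thymus) was over 3 log2 units under the tissue median. By sample-ID prefix, 10 pairs were placed in an earlier and 15 in a later set. In breast, liver and spleen the dates in the sample titles do not make this split, and what differed between the sets is not stated.

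The members and lists were chosen with earlier results of these data known. Genes named are the members, S100a9, Irf7, tissue markers, the 5 nearest genes of each member and the 10 neighbours. Up to 3 called genes of smallest p per list and tissue were named as well. Ifitm7, Ifitm10, Padi4, the 3 blood granule genes and the neutrophil genes named in breast and control liver were named after their values were seen. Irf7 replaced Isg15, which has no probe set with a single symbol. Alternatives were the floor, quantile normalization, probe set choice, a filter on dim genes, no pair block, pairs left out and each set of prefixes.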

Additional observations from a re-analysis of the deposited data

Results flagged for a closer look

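The change of 4 members differed between breast, liver, spleen and thymus by the limma F test of the difference itself. The adjusted p was 2.4e-17 for Ifitm1, which fell in breast and rose in liver and spleen, and 2.12e-14 for Ifitm6, with the same directions. It was 0.00756 for Ifitm2, whose spleen change exceeded the thymus change by 0.59 ± 0.16, and 0.00745 for Ifitm5, which over all pairs passed in spleen and not in breast, liver or thymus, and without the pairs that hold an array that stood apart passed in liver too (0.11 ± 0.041, limma adjusted p = 0.0342). In the earlier prefixes alone the F test of Ifitm2 and of Ifitm5 did not pass (limma adjusted p = 0.13 and 0.595). Of all genes, 56.8% passed this test. The part of cell composition in these differences was not tested.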

How the results depend on the processing

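Without the replicate block (matched pair) no call of a member changed. The numbers of members called were 4 in breast, 3 in liver, 5 in spleen and 0 in thymus, as with the block. With the block, 30% of all genes were called higher and 32.3% lower in breast, and 7.89% and 2.28% in liver. In spleen these shares were 22.4% and 18.3%, and in thymus 0.011% and 0%. The earlier prefixes alone, with 10 pairs, gave 0 members called in breast, 1 in liver and 2 of 5 in the F test between tissues. Of 200 correlations, 48 were under the threshold there, in place of 91 over all mice. Both counts include the relations in blood, which carry no test because blood values of Ifitm1 chose the family. Outside blood 71 of 160 passed over all mice, and no such count is given for the earlier prefixes. Of all genes, 18.2% were called higher and 20.5% lower in breast in that set, and 0.467% higher in liver. The F test passed there for 3712 of 18194 genes. Without pairs that hold an array that stood apart, 5 members passed in liver, all higher, beside 18.6% of all genes higher and 18.9% lower. Without the 2 thymus pairs that lacked Rag1, 1 member passed in thymus, where 0.0989% of all genes were called higher. Leaving out each pair in turn gave 0 to 1 members there. Quantile normalization added the liver change of Ifitm3. Leaving out dim genes removed Ifitm5 in each tissue and Ifitm6 in breast, liver and thymus, so those changes have no value there. The correlation of Ifitm2 with Ifitm3 in control liver turned to -0.22 without the 2 farthest mice, -0.32 in the later prefixes and -0.24 without arrays that stood apart, and that of Ifitm6 with S100a9 in control blood to -0.19 in the earlier prefixes. Leaving out pairs in turn, leaving out arrays that stood apart from the correlations, and leaving out pairs by tissue marker were chosen after seeing the data. Ifitm5 lies near background, which limits what its changes can show.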
